A study of Mus musculus with 12 samples.

Results

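Amino acid and peptide transporter genes were taken as every gene listed in the deposited tables whose symbol begins with Slc1a, Slc3a, Slc6a, Slc7a, Slc15a, Slc36a, Slc38a or Slc43a followed by a number. The rule found 47 genes of 18929 listed: 12 of the Slc7 family, 11 of Slc6, 8 of Slc38, 6 of Slc1, 4 of Slc15 and 2 each of Slc3, Slc36 and Slc43. Of these, 45 were transporter genes. Slc6a19os is an antisense gene that overlaps Slc6a19, and Slc7a6os is a protein-coding gene that is not itself a transporter. RNA-Seq counts came from 12 libraries of murine jejunal enteroids, which are crypt-derived epithelial cultures, grown for 5 days in ENR medium (EGF, Noggin and R-Spondin 1). There were 4 control, 4 Hdac1-deficient and 4 Hdac2-deficient libraries. All enteroids came from mice of mixed strain origin (C57BL/6 J, 129SV and CD1). In the mutants, floxed Hdac1 or Hdac2 alleles were crossed with a Cre transgene driven by the villin promoter, which is active in intestinal epithelial cells. The results name the control as villin-Cre, while the methods call it wild-type. The methods name 1 mouse per genotype as the source of crypts, so genotype cannot be told apart from the mouse and the enteroid line. No source says that the 4 libraries of a group were separate animals, and p-values measure the spread between these libraries, which may be technical.

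Library depth lay between 20693200 and 30658628 counts, and 3 counts, the floor used here, corresponded to 0.0972 to 0.145 CPM (TMM-scaled counts per 1000000 counted reads), which covers counting error only. Hdac1 was at 87.5 to 94.4 CPM in control and 3.37 to 5.09 CPM in Hdac1-deficient libraries. Hdac2 was at 131.6 to 141.1 CPM in control and 73.2 to 78.8 CPM in Hdac2-deficient libraries. A larger part of the counts of the targeted gene thus remained in Hdac2-deficient libraries. Counts per gene do not show which exons were read. The paper reports loss of each targeted gene in RNA and protein, by RT-PCR, Western blot and immunofluorescence. Enterocyte markers were abundant in every library, with a summed level of the 12 markers between 16220 and 17580 CPM in control. Summed markers of neurons and glia reached at most 2.60 CPM in any library, those of fibroblasts and smooth muscle 0.453 CPM, those of endothelium 1.41 CPM and those of immune cells 4.88 CPM. Not listed in either table were Sox10 and Gfap, Col1a2, Col3a1, Dcn, Acta2 and Des, Cdh5 and Kdr, and Cd3e. These are bulk libraries, in which fewer cells of a type and less RNA per cell cannot be told apart.

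Enterocytes take up di- and tripeptides and free amino acids across the brush border and release them across the basolateral membrane. Some carriers work only as heterodimers, in which a heavy chain of the Slc3 family brings a light chain of the Slc7 family to the membrane. Other members exchange glutamine and small neutral amino acids to feed growth, move amino acids out of lysosomes, or clear neurotransmitters and osmolytes. Several transporter genes are known targets of ATF4, the transcription factor of the amino acid response, while HNF4A is a known activator of enterocyte genes.

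RefSeq promoter windows (GRCm38.p6, gene strand, 245 bases that end 5 bases before the start) matched 36 of the 47 genes by symbol. Both strands were searched for TGATGNAA, the C/EBP-ATF response element, and for CAAAGTCC, an HNF4 element. Members without a window, among them Slc38a1, Slc7a5, Slc1a5 and Slc7a2, were not searched. The first was in 1120 of all 32851 windows (3.41%), and the members holding it in any window were Slc7a11 and Slc7a7. A gene can have several windows, so this share of windows is not a share of genes. The second was in 388 windows (1.18%) and, among members, in that of Slc3a1. Slc7a11, the cystine and glutamate exchanger gene, is shown because no tested member differed more between the mutants. Its window at chr3:50443619-50443863 (minus strand) holds the element, in capitals, at bases 185 to 192 and, on the other strand, at bases 204 to 211, counted from 1 at the 5′ end. Slc7a7, a light chain for cationic amino acid release, holds 1 match in the window shown (chr14:54417950-54418194, minus strand), which belongs to 1 of its 5 annotated starts. The window of a second start (chr14:54417708-54417952) holds TGATGCAA at bases 8 to 15.
Slc7a11: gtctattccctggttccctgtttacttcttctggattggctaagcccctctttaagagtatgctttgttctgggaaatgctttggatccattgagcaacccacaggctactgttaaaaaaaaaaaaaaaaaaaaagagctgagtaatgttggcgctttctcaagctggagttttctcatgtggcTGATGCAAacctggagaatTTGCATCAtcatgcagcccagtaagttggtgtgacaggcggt
Slc7a7: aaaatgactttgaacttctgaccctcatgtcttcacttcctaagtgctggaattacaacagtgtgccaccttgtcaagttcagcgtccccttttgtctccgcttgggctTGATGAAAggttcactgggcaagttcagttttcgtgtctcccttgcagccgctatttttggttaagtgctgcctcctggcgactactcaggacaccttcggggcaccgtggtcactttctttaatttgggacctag
Slc3a1, the heavy chain with the highest level per kilobase of all members, has the HNF4 letters at bases 212 to 219 of its window (chr17:85028097-85028341, plus strand). Slc15a2, the peptide transporter gene counted at almost nothing in control, held neither motif (chr16:36784968-36785212, minus strand) and 4 CpG dinucleotides.
Slc3a1: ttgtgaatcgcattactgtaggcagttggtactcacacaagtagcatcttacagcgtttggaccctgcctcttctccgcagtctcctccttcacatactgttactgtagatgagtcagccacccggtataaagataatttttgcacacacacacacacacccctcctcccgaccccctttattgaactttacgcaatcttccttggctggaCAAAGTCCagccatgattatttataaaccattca
Slc15a2: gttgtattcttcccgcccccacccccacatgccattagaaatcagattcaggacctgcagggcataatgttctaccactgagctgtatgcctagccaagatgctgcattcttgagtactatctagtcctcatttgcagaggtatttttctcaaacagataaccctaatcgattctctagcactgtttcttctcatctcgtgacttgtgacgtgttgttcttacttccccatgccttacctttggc
These matches are descriptions of letters and no test of binding. Of 19 matched response genes listed further on, 5 held TGATGNAA in any window: Asns, Chac1, Nupr1, Pycr1 and Vldlr.

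In control enteroids, levels compared per kilobase of exon were led by Slc3a1 at 67.9 ± 1.64 CPM per kilobase (SD, n = 4). The small neutral amino acid exchangers Slc1a4 at 47.1 ± 2.64 and Slc1a5 at 46.8 ± 1.61 CPM per kilobase followed, and did not differ beyond their spread. Next came Slc3a2, the heavy chain shared by the basolateral light chains, at 42.5 ± 0.594 CPM per kilobase. The taurine transporter gene Slc6a6 (32.4 ± 1.1) and the glutamine transporter gene Slc38a1 (32.3 ± 2.7) were lower and lay within each other's spread. In Hdac1-deficient enteroids Slc3a1 (96.9 ± 6.91) and Slc6a6 (45.7 ± 4.16) led, while Slc1a4 was at 18.5 ± 0.848 and Slc38a1 at 7.36 ± 0.451 CPM per kilobase. In Hdac2-deficient enteroids Slc3a1 (92.7 ± 1.67) led, Slc6a6 was at 41.8 ± 1.01, and Slc1a4 and Slc38a1 were at 25.6 ± 1.45 and 16.7 ± 0.877 CPM per kilobase. Slc6a20a, far down the control order at 7.26 ± 0.167 CPM per kilobase, stood at 31.2 ± 2.56 and 20.9 ± 0.579 CPM per kilobase in the Hdac1-deficient and the Hdac2-deficient libraries.

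**Figure D1:**
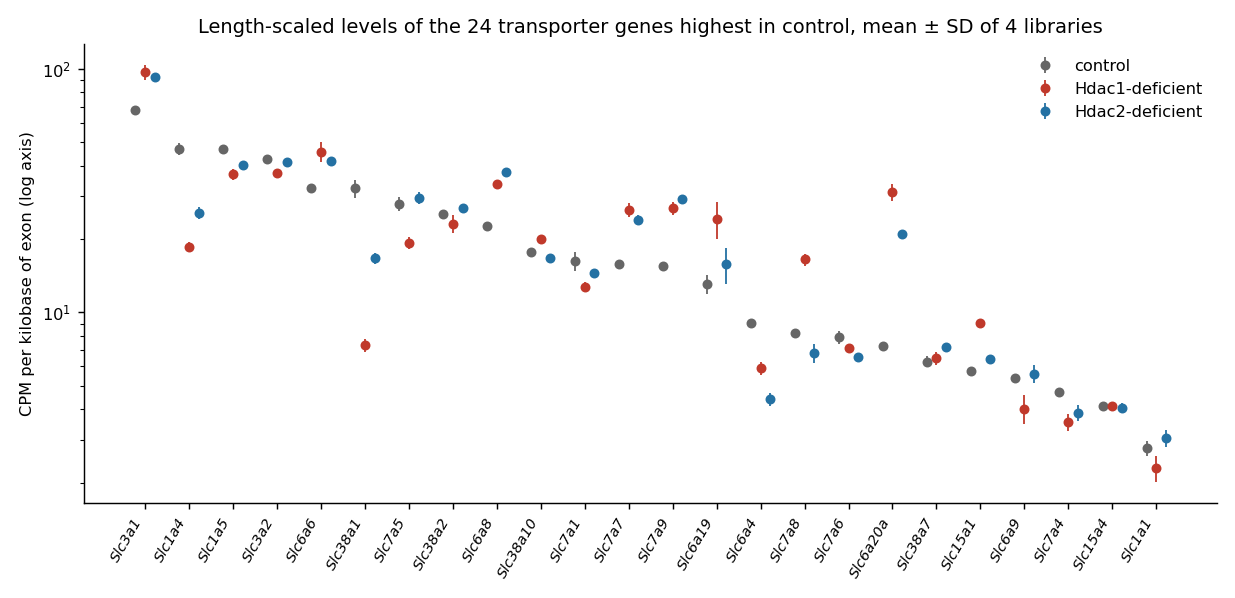
Levels in CPM per kilobase of exon (log axis) of the 24 transporter genes highest in control, for control, Hdac1-deficient and Hdac2-deficient enteroids. Points are means and lines SDs of 4 libraries. Slc3a1 is highest in each group, and Slc1a4 and Slc38a1 drop down the order in both mutants.

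In both mutants, transcripts for the apical uptake of imino acids, small amino acids and peptides were higher than in control, and those of the exchangers and importers Slc1a4, Slc38a1 and Slc7a2 were lower. Slc7a11 fell in Hdac1-deficient and rose in Hdac2-deficient cultures, while Slc7a8 did the opposite. With edgeR on all genes, each mutant was set against control and the 2 mutants against each other. Changes are given as log2 fold changes ± their standard error, with Hdac1-deficient minus Hdac2-deficient for the direct difference. A gene passed when its adjusted p was 0.05 or lower, and was called when it had also changed by more than 2-fold. In Hdac1-deficient enteroids, 7 of the 41 tested members (17.1%) were called higher and 4 (9.76%) lower, against 6.87% and 3.71% of the 14246 genes tested. In Hdac2-deficient enteroids, 4 of 41 (9.76%) were called higher and 3 (7.32%) lower, against 5.45% and 2.84% of 14007 genes. The members called higher include Slc15a2 (Hdac1) and Slc7a3 (Hdac2), each of which met the low-count filter only through that mutant. Between the mutants, 3 of 41 members were called higher and 3 lower in Hdac1-deficient enteroids (7.32% each), against 2.74% and 2.89% of 14510 genes. Without the fold limit, members passed more often upward: 20 rose and 14 fell in Hdac1-deficient enteroids (48.8% and 34.1%, against 32.7% and 31.9% of all genes), and 18 rose and 11 fell in Hdac2-deficient enteroids (43.9% and 26.8%, against 31.4% and 30.9%). In the direct comparison 18 were higher and 15 lower in Hdac1-deficient enteroids (43.9% and 36.6%, against 22.3% and 23.7%). The median log2 fold change of the members was 0.19 for Hdac1 and 0.15 for Hdac2, beside -0.004 over all genes in both. Without the 2 genes that are not transporters the medians were 0.342 and 0.175, and 2 rather than 3 members were called lower in Hdac2-deficient enteroids and 2 rather than 3 higher between the mutants. Both comparisons share the 4 control libraries. Of 38 transporter genes tested in both, 13 rose in both, 8 fell in both, 4 moved in opposite directions and 3 passed in neither (Slc15a4, Slc38a11 and Slc43a1). The other 10 passed in 1 mutant alone, which does not by itself show that the mutants differed.

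**Figure D2:**
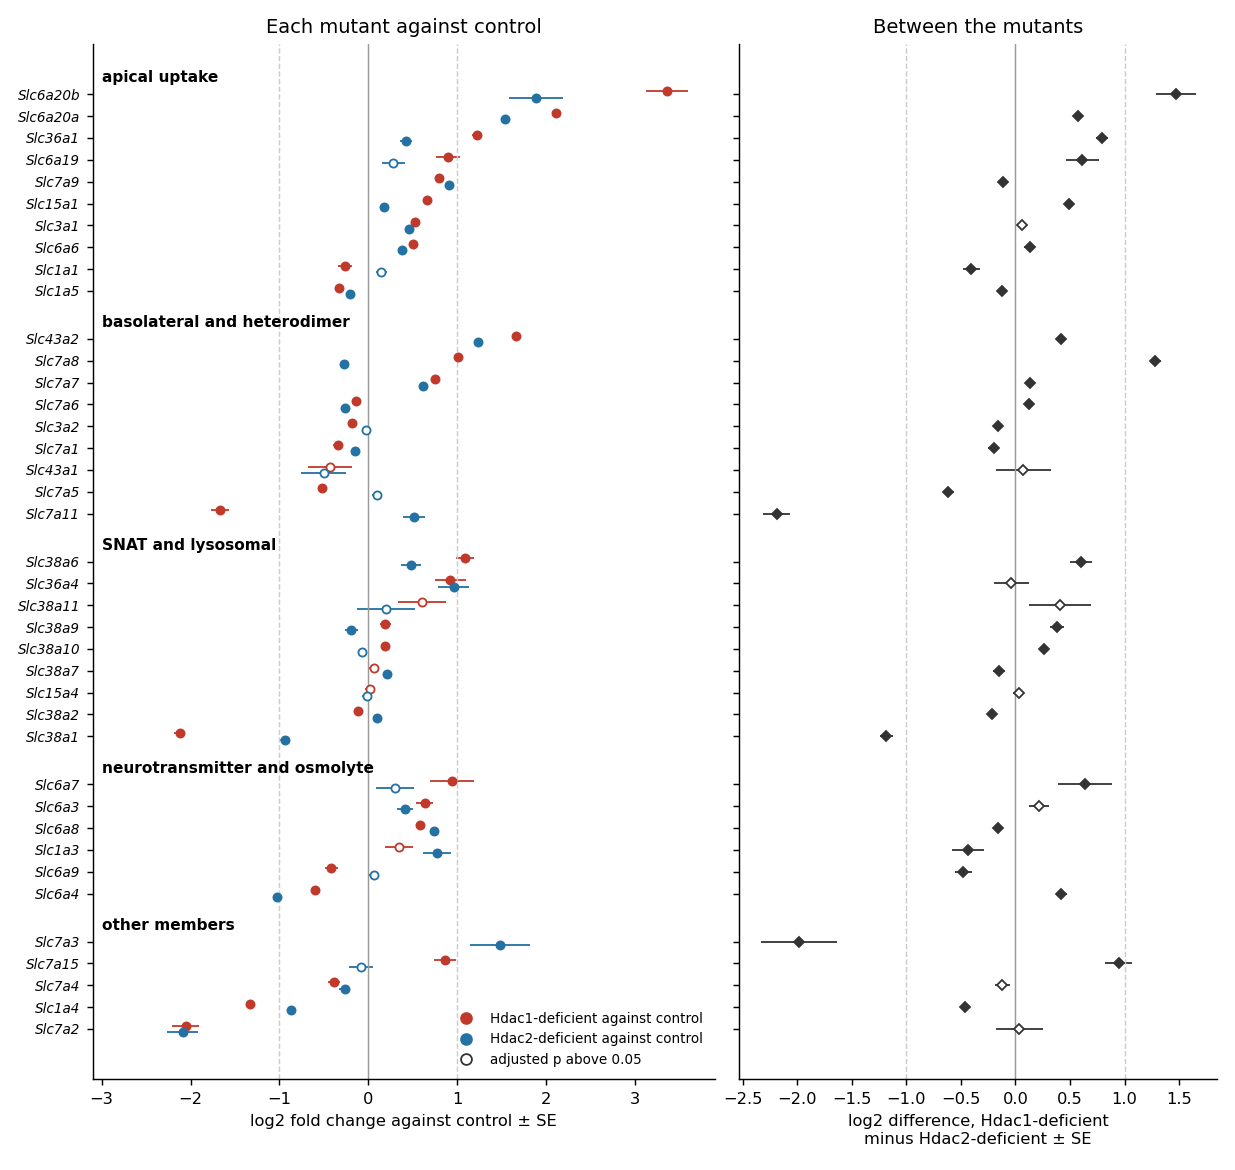
Left, log2 fold changes of the transporter genes against control, with standard errors, for Hdac1-deficient (red) and Hdac2-deficient (blue) enteroids. Right, the log2 difference between the mutants in the direct comparison. Filled points had an adjusted p of 0.05 or lower (edgeR), dashed lines mark 2-fold, and Slc15a2 (off the scale) is left out. Most apical genes lie right of zero in both mutants, while Slc7a11 and Slc7a8 lie on opposite sides.

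Among the apical uptake genes, Slc6a20a, the gene of an imino acid carrier, and its neighbour Slc6a20b rose most. Of the 10 tested, 8 rose and 2 fell in Hdac1-deficient enteroids, with 3 called and a median log2 fold change of 0.73. For Hdac2-deficient enteroids the counts were 7 and 1, with 2 called and a median of 0.40. These and the role counts further on stand beside shares over all genes tested. For Hdac1, 32.7% rose and 31.9% fell, with 6.87% called higher and 3.71% lower. For Hdac2, 31.4% rose and 30.9% fell, with 5.45% called higher and 2.84% lower. The 12 enterocyte markers rose in both mutants as well (5 and 3 called), their summed level reaching 28790 to 33060 CPM in Hdac1-deficient and 23360 to 26630 CPM in Hdac2-deficient libraries. The 6 stem cell markers summed to 3554 to 3765 CPM in control libraries, 2013 to 2347 CPM in Hdac1-deficient and 1685 to 1878 CPM in Hdac2-deficient libraries, with 5 lower and 1 higher in each mutant. The part of these shifts in the transporter values was not tested.

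Slc15a1 (PEPT1, ENSMUSG00000025557, chromosome 14, 121459621 to 121505252), the brush border carrier of di- and tripeptides, was at 26.7, 28.1, 29.1 and 28.6 CPM in the control libraries, 46, 44.9, 41.7 and 44.3 CPM in the Hdac1-deficient libraries and 32.5, 31.3, 31 and 31.3 CPM in the Hdac2-deficient libraries. The 3 groups did not overlap, with the Hdac1-deficient libraries highest. It rose on the log2 scale by 0.66 ± 0.046 (adjusted p = 1.4e-10) in the first mutant, Hdac1-deficient, and by 0.18 ± 0.045 (adjusted p = 0.0021) in the second, and the mutants differed by 0.49 ± 0.043 (adjusted p = 6.2e-10). Slc6a19, the main brush border carrier of neutral amino acids (B0AT1), was at 69.5, 59.9, 61.2 and 71.6 CPM in the control libraries, 131, 107, 101 and 146 CPM in the Hdac1-deficient libraries and 86.2, 67.3, 68.3 and 93.6 CPM in the Hdac2-deficient libraries. Hdac1-deficient libraries lay above all others, while the control and Hdac2-deficient ranges overlapped. Its log2 fold change of 0.89 ± 0.13 (adjusted p = 0.00079) in Hdac1-deficient enteroids passed, and that of 0.28 ± 0.13 (adjusted p = 0.1) in Hdac2-deficient enteroids did not, except without replicate 2 of the latter (0.35, adjusted p = 0.045) or with replicate numbers as a block (0.27, adjusted p = 1.2e-05). The direct difference of 0.61 ± 0.15 (adjusted p = 0.0071) passed.

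Slc6a20a (ENSMUSG00000036814, chromosome 9, 123634770 to 123678885), which carries proline and other imino acids, was at 29.9, 29, 29.2 and 30.5 CPM in the control libraries, 126, 118, 122 and 142 CPM in the Hdac1-deficient libraries and 88.1, 83.4, 83.7 and 87 CPM in the Hdac2-deficient libraries. It changed most among the well-counted apical genes, and no library of one group overlapped another. It rose 4.33-fold and 2.91-fold in the 2 mutants, with log2 fold changes of 2.11 ± 0.051 (adjusted p = 2.6e-17) and 1.54 ± 0.038 (adjusted p = 2.7e-18), and was higher in the former by 0.57 ± 0.043 (adjusted p = 4.6e-11). Its neighbour Slc6a20b (ENSMUSG00000025243, chromosome 9, 123590800 to 123632565) was low, at 0.368, 0.422, 0.0991 and 0.252 CPM in the control libraries, 3.0, 2.59, 3.22 and 2.95 CPM in the Hdac1-deficient libraries and 1.07, 0.976, 1.21 and 0.998 CPM in the Hdac2-deficient libraries. The groups were again apart in the same order. The log2 fold changes were 3.36 ± 0.24 (adjusted p = 1.9e-10) and 1.89 ± 0.30 (adjusted p = 1.6e-05), and the mutants differed by 1.47 ± 0.18 (adjusted p = 2.3e-07). The 2 genes are closely related neighbours, so reads may have been split between them in counting, and Slc6a20b, near the floor of 3 counts in control, is uncertain.

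Slc36a1 (PAT1, ENSMUSG00000020261, chromosome 11, 55204350 to 55236330), a proton-coupled carrier of small amino acids, was at 12.4, 14, 14.3 and 14.6 CPM in the control libraries, 33, 30.8, 32 and 32.2 CPM in the Hdac1-deficient libraries and 19, 18.4, 19.2 and 17.1 CPM in the Hdac2-deficient libraries. All Hdac2-deficient libraries lay between control and the Hdac1-deficient libraries. Its log2 fold changes were 1.22 ± 0.056 (adjusted p = 2.6e-13) for Hdac1 and 0.43 ± 0.065 (adjusted p = 7.1e-06) for Hdac2, with a difference of 0.79 ± 0.054 (adjusted p = 3.5e-12). Slc6a6 was at 262, 276, 284 and 274 CPM in the control libraries, 395, 362, 356 and 432 CPM in the Hdac1-deficient libraries and 353, 346, 349 and 365 CPM in the Hdac2-deficient libraries. Both mutants were above control and overlapped each other, with log2 fold changes of 0.51 ± 0.052 (adjusted p = 5.8e-07) and 0.38 ± 0.031 (adjusted p = 9.6e-10). Their difference of 0.13 (adjusted p = 0.034) did not pass in 6 of the alternative fits, such as without Hdac1-deficient replicate 4 (0.073, adjusted p = 0.11).

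The cystine and dibasic amino acid carrier is made of the heavy chain Slc3a1 and the light chain Slc7a9, and transcripts of both rose in both mutants. Slc3a1 was at 159, 151, 151 and 156 CPM in the control libraries, 217, 217, 204 and 242 CPM in the Hdac1-deficient libraries and 214, 206, 209 and 214 CPM in the Hdac2-deficient libraries. Every mutant library was above every control library, and the mutants overlapped. The log2 fold changes were 0.53 ± 0.041 (adjusted p = 1.3e-09) and 0.46 ± 0.029 (adjusted p = 1e-11), and their difference of 0.064 ± 0.038 (adjusted p = 0.17) did not pass. Slc7a9 was at 42.8, 39.7, 41.6 and 42.5 CPM in the control libraries, 69, 69.8, 70.03 and 78.5 CPM in the Hdac1-deficient libraries and 79.9, 74.3, 77.9 and 79.3 CPM in the Hdac2-deficient libraries. Control lay below both mutants, which overlapped each other. Its log2 fold changes were 0.80 ± 0.045 (adjusted p = 6.3e-12) and 0.91 ± 0.039 (adjusted p = 1.9e-14), with a difference of -0.12 ± 0.041 (adjusted p = 0.024) that did not pass when the libraries were scaled by size alone (-0.088, adjusted p = 0.076) or with Hdac1-deficient replicate 1, 2 or 3 or Hdac2-deficient replicate 1 or 4 left out.

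The 2 remaining expressed apical genes did not rise in Hdac1-deficient enteroids. Slc1a5 (ASCT2), an exchanger of glutamine and other neutral amino acids, was at 187, 195, 203 and 197 CPM in the control libraries, 149, 153, 166 and 149 CPM in the Hdac1-deficient libraries and 164, 171, 175 and 164 CPM in the Hdac2-deficient libraries. Control libraries were above all mutant libraries, and the mutants overlapped. It fell in both, with log2 fold changes of -0.33 ± 0.038 (adjusted p = 2.6e-07) and -0.21 ± 0.033 (adjusted p = 1.3e-05). Slc1a1 (EAAC1), the glutamate and aspartate carrier, was at 21, 24.1, 24.2 and 22.1 CPM in the control libraries, 18.9, 20.1, 21.2 and 15.6 CPM in the Hdac1-deficient libraries and 25.2, 26.6, 26.5 and 22.2 CPM in the Hdac2-deficient libraries. Its Hdac1-deficient libraries were the lowest but overlapped control by 1 library. It fell in Hdac1-deficient enteroids (-0.26 ± 0.079, adjusted p = 0.0095), while 0.15 in Hdac2-deficient enteroids lay just above the limit (adjusted p = 0.05) and passed in 6 alternatives, such as without control replicate 3 (0.17, adjusted p = 0.03) or with replicate numbers as a block (0.15, adjusted p = 0.017), and the mutants differed by -0.40 ± 0.080 (adjusted p = 0.00034). Slc1a1 lies on chromosome 19, where 355 of 469 other protein-coding genes fell in Hdac1-deficient enteroids (median log2 fold change -0.53) and 359 of 459 fell in Hdac2-deficient enteroids (median -0.52). The part of this shift in Slc1a1 was not tested.

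**Figure D3:**
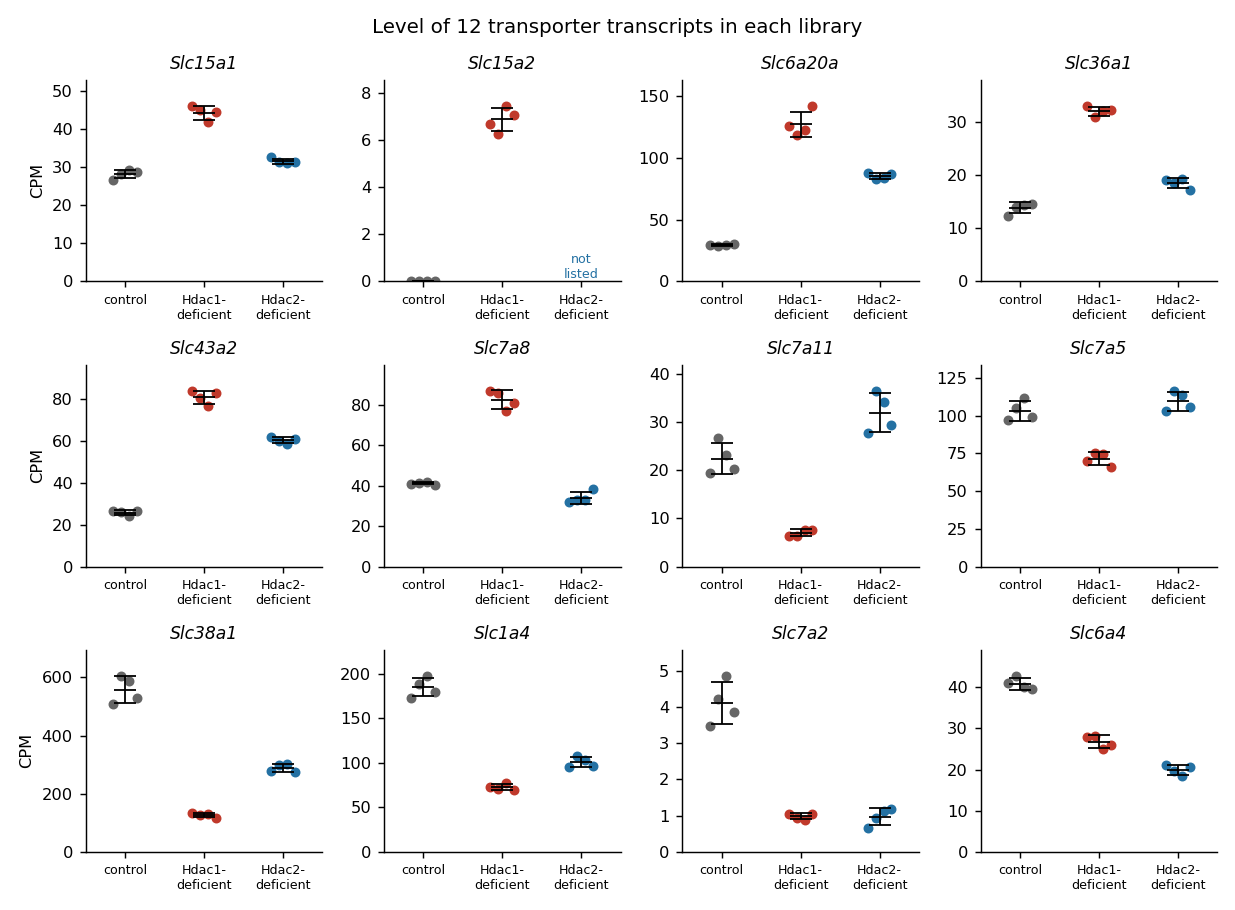
CPM of 12 transporter transcripts in each of the 12 libraries, by group. Dots are libraries, bars the mean and SD of 4, and axes start at 0. Slc15a2 was not listed in the Hdac2 table. Slc15a2 has almost no counts in control and is well above that level in Hdac1-deficient libraries. Slc7a8 and Slc7a11 depart from control in opposite directions in the mutants, and Slc38a1, Slc1a4, Slc7a2 and Slc6a4 are below control in both.

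The basolateral carriers and heterodimers moved in both directions. Of 9 tested, 3 rose and 5 fell in Hdac1-deficient enteroids (2 and 1 called, median log2 fold change -0.18), and 3 rose and 3 fell in Hdac2-deficient enteroids (1 and 0 called, median -0.022). Slc43a2 (LAT4, ENSMUSG00000038178, chromosome 11, 75531694 to 75577575), a uniporter for branched-chain and aromatic amino acids, was at 26.5, 25.9, 24.3 and 26.4 CPM in the control libraries, 83.6, 80.2, 76.5 and 82.6 CPM in the Hdac1-deficient libraries and 62, 59.8, 58.7 and 60.9 CPM in the Hdac2-deficient libraries. No groups overlapped. It rose 3.16-fold and 2.36-fold, or 1.66 ± 0.044 (adjusted p = 5.9e-17) and 1.24 ± 0.042 (adjusted p = 4.9e-16) on the log2 scale, with a difference of 0.42 ± 0.038 (adjusted p = 1e-09). Its relative Slc43a1 (LAT3) was low, at 2.31, 2.08, 0.958 and 1.34 CPM in the control libraries, 0.900, 1.49, 1.28 and 1.24 CPM in the Hdac1-deficient libraries and 0.958, 1.25, 1.41 and 1.13 CPM in the Hdac2-deficient libraries. The groups overlapped, and neither log2 fold change, -0.43 ± 0.25 (adjusted p = 0.13) and -0.50 ± 0.25 (adjusted p = 0.085), passed. Both passed without control replicate 3 (-0.64 and -0.71, adjusted p = 0.014 and 0.0067).

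Slc7a8 (LAT2, ENSMUSG00000022180, chromosome 14, 54722209 to 54781946), a light chain that exchanges neutral amino acids, was at 41.1, 41.5, 41.8 and 40.5 CPM in the control libraries, 86.9, 86, 76.9 and 80.9 CPM in the Hdac1-deficient libraries and 32.1, 32.9, 32.9 and 38.5 CPM in the Hdac2-deficient libraries. The Hdac1-deficient libraries were about double the control level and the Hdac2-deficient libraries below it, with no overlap. Its rise of 1.01 ± 0.043 (adjusted p = 7.9e-14) in Hdac1-deficient enteroids lay close to the 2-fold limit and was 0.99 without either replicate 1 or replicate 2 of that group. It fell in Hdac2-deficient enteroids (-0.27 ± 0.051, adjusted p = 0.0001), and the mutants differed by 1.28 ± 0.050 (adjusted p = 4.2e-17), or 2.43-fold. Slc7a7 (y+LAT1), which releases cationic amino acids, was at 52.6, 50.4, 52.4 and 53.8 CPM in the control libraries, 87.2, 86.6, 81 and 94.5 CPM in the Hdac1-deficient libraries and 82.1, 76.2, 76.8 and 82.8 CPM in the Hdac2-deficient libraries. Mutant libraries overlapped each other and lay above control. It rose by 0.75 ± 0.044 (adjusted p = 9.6e-12) and 0.61 ± 0.039 (adjusted p = 1.2e-11) on the log2 scale. Slc7a6 (y+LAT2), the more widely expressed counterpart, was at 34.8, 38.3, 33.9 and 37.6 CPM in the control libraries, 32.4, 34, 31.5 and 32.3 CPM in the Hdac1-deficient libraries and 29, 30.4, 30.00 and 30.1 CPM in the Hdac2-deficient libraries. Hdac2-deficient libraries lay below control, while an Hdac1-deficient library lay inside the control range. The log2 fold changes were -0.14 ± 0.049 (adjusted p = 0.019) and -0.26 ± 0.048 (adjusted p = 7.3e-05), and the former did not pass without control replicate 2 or 4 or without Hdac1-deficient replicate 3.

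Slc7a11 (xCT, ENSMUSG00000027737, chromosome 3, 49892526 to 50443614), whose 2 promoter elements are shown above, imports cystine in exchange for glutamate. It was at 19.5, 26.6, 23.1 and 20.3 CPM in the control libraries, 6.37, 6.35, 7.62 and 7.64 CPM in the Hdac1-deficient libraries and 27.7, 36.4, 34.2 and 29.4 CPM in the Hdac2-deficient libraries. All Hdac1-deficient libraries lay far below control and all Hdac2-deficient libraries above it. The gene fell 3.18-fold with Hdac1 deficiency (-1.67 ± 0.10, adjusted p = 7e-10) and rose 1.43-fold in Hdac2-deficient enteroids (0.52 ± 0.13, adjusted p = 0.0068). The direct difference was -2.19 ± 0.12 (adjusted p = 4.1e-09), the largest of any tested member, and stayed between -2.25 and -2.11 with any library left out. The culture medium held N-acetylcysteine in every group, per the methods.

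The heavy chain Slc3a2 and its light chain Slc7a5 (LAT1), the carrier of large neutral amino acids, were lower in Hdac1-deficient enteroids than in both other groups. Slc7a5 was at 96.9, 105, 112 and 99.3 CPM in the control libraries, 69.9, 75.5, 74.5 and 66.3 CPM in the Hdac1-deficient libraries and 103, 116, 114 and 106 CPM in the Hdac2-deficient libraries. Hdac1-deficient libraries were apart from the others, which overlapped. It fell by 1.43-fold in Hdac1-deficient enteroids (-0.52 ± 0.049, adjusted p = 3.1e-08), and the difference was 0.093 ± 0.049 (adjusted p = 0.11) in Hdac2-deficient enteroids and -0.61 ± 0.051 (adjusted p = 3e-09) between the mutants. The Hdac2 value passed without control replicate 3 (0.13, adjusted p = 0.014), without Hdac2-deficient replicate 1 (0.12, adjusted p = 0.039), and with replicate numbers as a block (0.095, adjusted p = 0.013). Slc3a2 was at 150.2, 151, 151 and 147 CPM in the control libraries, 131, 129.9, 129 and 136 CPM in the Hdac1-deficient libraries and 146, 152, 145 and 144 CPM in the Hdac2-deficient libraries. The shift was small but the Hdac1-deficient libraries did not overlap the others. Its log2 fold changes were -0.18 ± 0.031 (adjusted p = 5.6e-05) and -0.022 ± 0.030 (adjusted p = 0.53), with a difference of -0.16 ± 0.030 (adjusted p = 0.00011), and it lies on chromosome 19, whose shift is given with Slc1a1. Slc7a1 (CAT1), the cationic amino acid carrier of growing cells, was at 167, 199, 201 and 181 CPM in the control libraries, 154, 147, 148 and 137 CPM in the Hdac1-deficient libraries and 165, 171, 172 and 165 CPM in the Hdac2-deficient libraries. Hdac1-deficient libraries were below control and Hdac2-deficient libraries overlapped it. The log2 fold changes were -0.34 ± 0.057 (adjusted p = 0.00012) and -0.15 ± 0.053 (adjusted p = 0.032), and the second did not pass without control replicate 2 or without Hdac2-deficient replicate 1 or 4.

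The SNAT (Slc38) and lysosomal group held the largest fall by level. Slc38a1 (SNAT1, ENSMUSG00000023169, chromosome 15, 96571418 to 96642913), a sodium-coupled importer of glutamine, was the member with the most counts in control. It was at 508, 604, 589 and 527 CPM in the control libraries, 133, 128, 131 and 116 CPM in the Hdac1-deficient libraries and 276, 298, 303 and 274 CPM in the Hdac2-deficient libraries. The 3 groups did not overlap, with Hdac1-deficient libraries lowest. It fell 4.36-fold when Hdac1 was deficient and 1.92-fold when Hdac2 was, with log2 fold changes of -2.12 ± 0.062 (adjusted p = 7.8e-12) and -0.94 ± 0.061 (adjusted p = 1.6e-07) and a difference of -1.18 ± 0.061 (adjusted p = 8.4e-10). Slc38a2 (SNAT2), which is induced by amino acid lack, was at 214.6 to 231.5 CPM in control libraries. Its log2 fold changes were only -0.12 ± 0.046 (adjusted p = 0.035) and 0.096 ± 0.031 (adjusted p = 0.0099), in opposite directions, and the mutants differed by -0.22 ± 0.043 (adjusted p = 0.00029).

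Slc38a6 (ENSMUSG00000044712, chromosome 12, 73286779 to 73354049), a less studied relative of Slc38a1, was at 3.12, 3.41, 3.37 and 4.12 CPM in the control libraries, 6.79, 7.0, 7.52 and 8.0 CPM in the Hdac1-deficient libraries and 5.56, 4.53, 4.51 and 4.64 CPM in the Hdac2-deficient libraries. No groups overlapped and Hdac1-deficient libraries were highest. Its log2 fold changes were 1.09 ± 0.10 (adjusted p = 1.2e-08) and 0.48 ± 0.12 (adjusted p = 0.0012), and the mutants differed by 0.60 ± 0.099 (adjusted p = 1.6e-05). In the whole group of 9 tested genes, 4 rose and 2 fell in each mutant, with medians of 0.19 and 0.096. Slc38a9, the lysosomal arginine sensor, moved in opposite directions by 0.19 ± 0.064 (adjusted p = 0.014) and -0.19 ± 0.073 (adjusted p = 0.026), and the mutants differed by 0.38 ± 0.068 (adjusted p = 4.6e-05). Slc36a4 was near 2-fold higher in both, at 0.92 ± 0.17 (adjusted p = 8.9e-05) and 0.96 ± 0.18 (adjusted p = 7.9e-05), from 1.16 ± 0.204 CPM in control. Slc38a10 rose in Hdac1-deficient enteroids by 0.19 ± 0.034 (adjusted p = 5.7e-05), against -0.075 in Hdac2-deficient enteroids (adjusted p = 0.058), and the direct difference of 0.26 ± 0.032 (adjusted p = 1.9e-07) passed. The lysosomal glutamine carrier Slc38a7 rose in Hdac2-deficient enteroids by 0.21 ± 0.049 (adjusted p = 0.00072), against 0.064 in Hdac1-deficient enteroids (adjusted p = 0.31). Its direct difference of -0.15 ± 0.051 (adjusted p = 0.016) passed. The lysosomal peptide and histidine carrier Slc15a4 and Slc38a11 did not pass in any comparison.

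Summed by role, apical genes made up 28.4% to 30.3% of all transporter CPM in control libraries, 42.96% to 45.7% in Hdac1-deficient and 36.7% to 38.5% in Hdac2-deficient libraries. The SNAT and lysosomal group made up 33.3% to 35.01%, 19.4% to 20.04% and 24.8% to 25.5%. These sums follow the most abundant members, since CPM is not scaled by length, and shares of one total cannot move independently. Basolateral genes were at 21.9% to 22.2%, 22.7% to 24.7% and 23.4% to 24.2%.

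**Figure D4:**
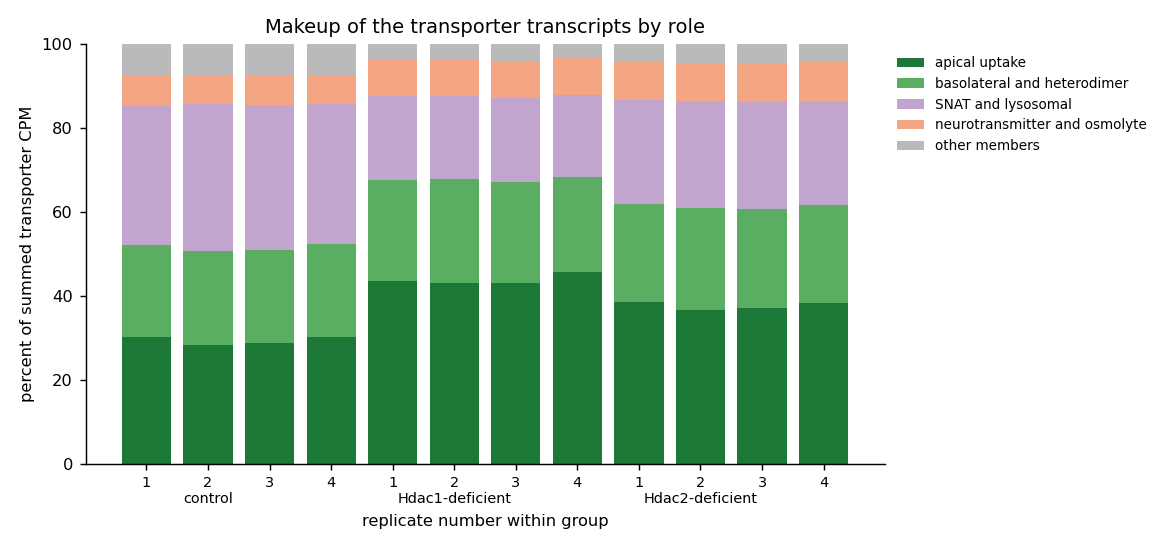
Percent of the summed transporter CPM held by each role, for each of the 12 libraries (4 per group). Each bar is 1 library and adds to the whole of the 45 transporter genes. The apical share is larger, and the SNAT and lysosomal share smaller, in every mutant library than in every control library.

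Of the remaining carriers 5 were tested in each comparison, though not the same 5. Slc15a2 was tested in Hdac1-deficient cultures alone against control, and Slc7a3 in Hdac2-deficient cultures alone. Of these, 2 rose and 3 fell in Hdac1-deficient and 1 rose and 3 fell in Hdac2-deficient cultures. Slc15a2 (PEPT2, ENSMUSG00000022899, chromosome 16, 36750177 to 36784962), a high-affinity peptide transporter better known from kidney and brain, had 0, 1, 1 and 0 counts in control and 179, 194, 227 and 195 counts in Hdac1-deficient libraries. That is 6.71, 6.28, 7.46 and 7.09 CPM in the Hdac1-deficient libraries. Their mean of 6.89 CPM was at least 54.6-fold higher than the control level, taken at 3 counts in the shallowest control library (0.126 CPM). Its adjusted p from edgeR was 1.5e-15, but it met the low-count filter only through the Hdac1-deficient libraries. That p therefore adds no support, although the gene is counted among the members called higher. It was not listed in the Hdac2 table, which requires 10 counts over 8 libraries, so the 4 Hdac2-deficient libraries together held at most 7 counts. Per kilobase of exon, Slc15a1 was at 9.05 ± 0.369 CPM in the same libraries and Slc15a2 at 0.935 ± 0.0684 CPM (SD, n = 4).

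Slc1a4 (ASCT1, ENSMUSG00000020142, chromosome 11, 20302180 to 20332713), which exchanges alanine, serine and cysteine, was at 173, 189, 197 and 179.9 CPM in the control libraries, 72.8, 70.9, 77.4 and 69.8 CPM in the Hdac1-deficient libraries and 94.8, 107, 103 and 96.7 CPM in the Hdac2-deficient libraries. All 3 groups were apart. It fell 2.52-fold when Hdac1 was deficient and 1.83-fold when Hdac2 was, with log2 fold changes of -1.33 ± 0.043 (adjusted p = 1.6e-15) and -0.87 ± 0.045 (adjusted p = 2.7e-11) and a difference of -0.47 ± 0.045 (adjusted p = 1.1e-08). Slc7a2 (CAT2, ENSMUSG00000031596, chromosome 8, 40862396 to 40922308), an inducible cationic amino acid carrier, was at 3.48, 4.22, 4.86 and 3.86 CPM in the control libraries, 1.05, 0.939, 0.887 and 1.05 CPM in the Hdac1-deficient libraries and 0.663, 0.937, 1.12 and 1.17 CPM in the Hdac2-deficient libraries. Both mutants were below control and overlapped. The log2 fold changes were -2.06 ± 0.15 (adjusted p = 3.8e-10) and -2.09 ± 0.17 (adjusted p = 1.1e-09), and the mutants did not detectably differ (0.033 ± 0.22, adjusted p = 0.92). Slc7a3 (CAT3, ENSMUSG00000031297, chromosome X, 101079210 to 101086020), a cationic amino acid carrier known from the nervous system, was under 2 CPM, at 0.402, 0.246, 0.429 and 0.294 CPM in the control libraries, 0.225, 0.130, 0.296 and 0.327 CPM in the Hdac1-deficient libraries and 0.479, 1.06, 1.55 and 0.911 CPM in the Hdac2-deficient libraries. Hdac2-deficient libraries were above all others and spread widely. It was filtered out of the Hdac1 comparison and met the filter elsewhere only through the Hdac2-deficient libraries. Slc7a3 rose by 1.48 ± 0.34 (adjusted p = 0.00066) in Hdac2-deficient enteroids, and the direct difference was -1.98 ± 0.35 (adjusted p = 4.3e-05). Given that filter, these p-values add no support. Slc7a15 rose by 0.87 ± 0.12 (adjusted p = 3.7e-06) in Hdac1-deficient enteroids and was -0.084 in Hdac2-deficient enteroids (adjusted p = 0.6), with a direct difference of 0.95 ± 0.12 (adjusted p = 4.9e-07). Slc7a4 fell by less than 2-fold in both, with log2 fold changes of -0.39 ± 0.063 (adjusted p = 2.1e-05) and -0.27 ± 0.061 (adjusted p = 0.00077).

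The carriers of neurotransmitters and osmolytes were mostly low, apart from Slc6a8, which imports creatine. Of 6 tested, 3 rose and 2 fell in Hdac1-deficient enteroids (median 0.46), and 3 rose and 1 fell in Hdac2-deficient enteroids (median 0.36). Slc6a4 (SERT, ENSMUSG00000020838, chromosome 11, 76998603 to 77032340), the serotonin transporter that enterocytes use to clear serotonin, was at 41, 42.7, 40.03 and 39.6 CPM in the control libraries, 28, 28.2, 24.9 and 25.9 CPM in the Hdac1-deficient libraries and 21, 19.6, 18.5 and 20.7 CPM in the Hdac2-deficient libraries. The groups did not overlap and Hdac2-deficient libraries were lowest. It fell by less than 2-fold in Hdac1-deficient enteroids (-0.60 ± 0.050, adjusted p = 2.2e-09) and by more in Hdac2-deficient enteroids (-1.02 ± 0.049, adjusted p = 1.7e-13), where it was -0.99 without replicate 3 of that group. The mutants differed by 0.42 ± 0.054 (adjusted p = 4e-07). Slc6a8 was at 118 ± 2.48 CPM in control and rose to 175 ± 7.07 and 196 ± 3.28 CPM in the mutants (SD, n = 4), with log2 fold changes of 0.58 ± 0.035 (adjusted p = 1.4e-11) and 0.74 ± 0.029 (adjusted p = 5e-15). The glycine transporter gene Slc6a9 fell in Hdac1-deficient enteroids (-0.42 ± 0.073, adjusted p = 7.7e-05) and was 0.059 in Hdac2-deficient enteroids (adjusted p = 0.35). The mutants differed in Slc6a9 by -0.48 ± 0.077 (adjusted p = 3.7e-05). The dopamine transporter gene Slc6a3 was higher in both, by 0.63 ± 0.098 (adjusted p = 1.1e-05) and 0.41 ± 0.095 (adjusted p = 0.00078), from 4.32 ± 0.286 CPM in control. The proline transporter gene Slc6a7 rose in Hdac1-deficient enteroids by 0.95 ± 0.25 (adjusted p = 0.0054) and was 0.30 in Hdac2-deficient enteroids (adjusted p = 0.23). Its direct difference of 0.64 ± 0.25 lay just inside the limit (adjusted p = 0.048). The glutamate transporter gene Slc1a3 rose in Hdac2-deficient enteroids by 0.77 ± 0.16 (adjusted p = 0.00024) and was 0.34 in Hdac1-deficient enteroids (adjusted p = 0.063). Between the mutants Slc1a3 differed by -0.43 ± 0.145 (adjusted p = 0.017).

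Of the other 2 matched genes, Slc6a19os lay under 0.7 CPM in every library, at 0.469, 0.422, 0.628 and 0.462 CPM in the control libraries, 0.375, 0.227, 0.394 and 0.654 CPM in the Hdac1-deficient libraries and 0.0737, 0.156, 0.145 and 0.130 CPM in the Hdac2-deficient libraries. Hdac2-deficient libraries were lowest and did not overlap the rest. The Hdac2-deficient libraries held 2, 4, 3 and 3 counts, about the floor, so no fold is given. It passed as lower in Hdac2-deficient enteroids (adjusted p = 0.00019) and between the mutants (adjusted p = 0.0026), and not in Hdac1-deficient enteroids (-0.27 ± 0.31, adjusted p = 0.46). It overlaps Slc6a19, the libraries were made with a directional kit, and the strand setting of the counting is not given in the sources used here, so reads of the pair may not have been told apart. Slc7a6os was between 27.9 and 33.2 CPM in all libraries, with a difference between the mutants of 0.14 ± 0.045 (adjusted p = 0.013). Slc1a2, Slc1a7, Slc15a3, Slc38a3 and Slc6a14 had at most 10 counts in any library in which they were listed and were not tested in any comparison.

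Carriers depend on partners and on peptidases, so genes for these were read beside the members. Of 16 tested, 15 rose and 0 fell in Hdac1-deficient enteroids (12 called, median log2 fold change 1.13), and 15 rose and 0 fell in Hdac2-deficient enteroids (7 called, median 0.80). Over all genes tested, 32.7% rose for Hdac1 and 31.4% for Hdac2, with 6.87% and 5.45% called higher. All 12 enterocyte markers also rose in each mutant, with median log2 fold changes of 0.89 (Hdac1) and 0.63 (Hdac2). Whether the partner and peptidase genes rose apart from these markers was not tested. The aminopeptidase gene Anpep rose by 0.87 and 0.33 on the log2 scale (adjusted p = 3.9e-14 and 1.2e-08, edgeR). Naaladl1, a brush border peptidase gene, was at 3.6 ± 0.222 CPM in control and at 108 ± 11.8 and 14 ± 1.2 CPM in the mutants (SD, n = 4), a rise of 4.91 and 1.96 on the log2 scale (adjusted p = 1.1e-15 and 4.3e-14). The sodium-proton exchanger gene Slc9a3, whose product sustains the acid gradient used by proton-coupled carriers, had 1.07 and 0.32 (adjusted p = 5.6e-09 and 0.00019). The aromatic amino acid uniporter gene Slc16a10 rose by 0.56 in Hdac1-deficient enteroids (adjusted p = 8.1e-10) and was 0.030 in Hdac2-deficient enteroids (adjusted p = 0.53). Dpp4, a dipeptidyl peptidase gene, was the exception, at -0.033 in Hdac1-deficient enteroids (adjusted p = 0.37), and rose by 0.19 in Hdac2-deficient enteroids (adjusted p = 1e-05).

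The 20 listed genes of the amino acid response, among them ATF4 itself and genes known as its targets, included none of the transporter genes. In Hdac1-deficient enteroids 1 rose (Cebpb) and 17 fell, with 7 called lower and a median log2 fold change of -0.67. For Hdac2-deficient enteroids, 7 rose and 11 fell, with 2 called lower and a median of -0.18. Over all genes tested, 32.7% rose and 31.9% fell for Hdac1, and 31.4% and 30.9% for Hdac2. The shares called lower were 3.71% and 2.84%. Between the mutants, 18 of the 20 were lower in Hdac1-deficient enteroids and 1 was higher (Aldh18a1, on chromosome 19), with a median of -0.60 beside 0.005 over all genes. Of all genes tested, 23.7% were lower and 22.3% higher. Asns, the asparagine synthetase gene, had log2 fold changes of -1.17 and -0.17, and the mutants differed by -1.01 (adjusted p = 3.7e-16, edgeR). Chac1, which encodes a glutathione-degrading enzyme, had -1.33 and 0.19, opposite in sign as for Slc7a11, and differed by -1.52 (adjusted p = 6.4e-16). The serine synthesis genes Psat1 (-1.75 and -1.17) and Phgdh (-1.57 and -0.69) fell in both mutants, as Slc1a4 did. Atf4 itself fell with Hdac1 deficiency and rose with Hdac2 deficiency, at -0.27 and 0.18 (adjusted p = 1.7e-07 and 1.1e-05). Ddit3 did not pass in Hdac1-deficient enteroids (0.005, adjusted p = 0.96) and rose by 0.79 in Hdac2-deficient enteroids (adjusted p = 4.5e-10).

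**Figure D5:**
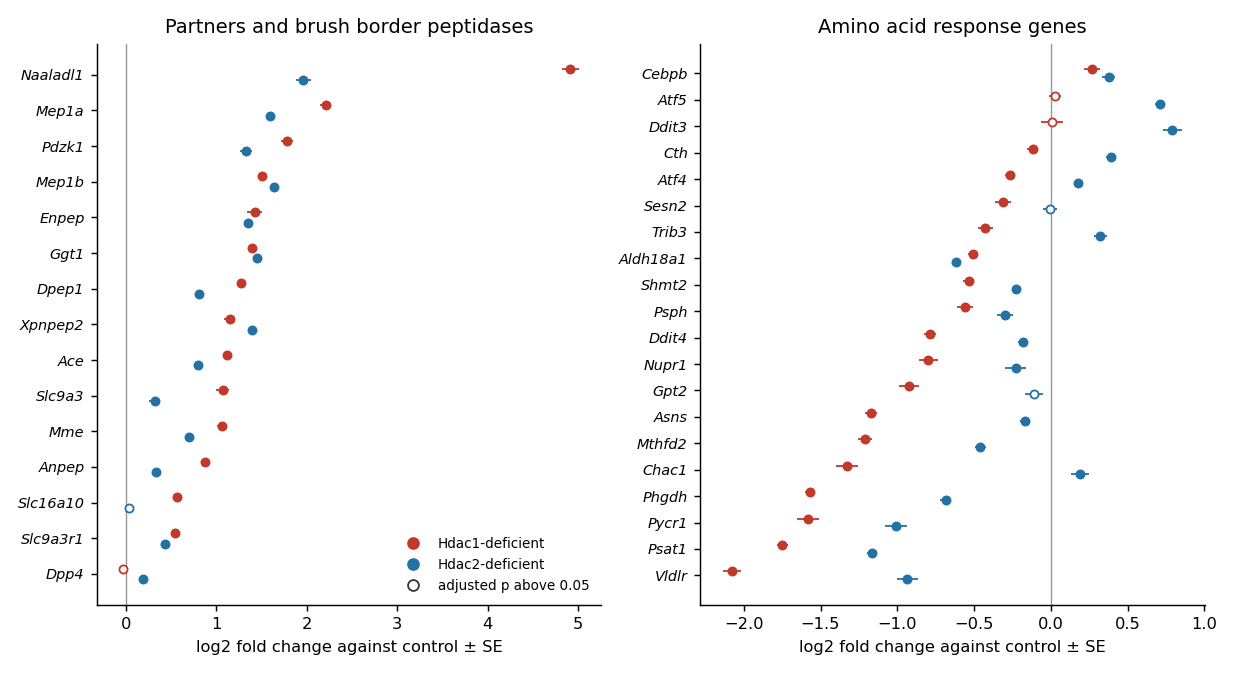
Log2 fold changes against control, with standard errors, of 15 of the 16 transporter partners and peptidases (left) and amino acid response genes (right), for Hdac1-deficient (red) and Hdac2-deficient (blue) enteroids. Filled points had an adjusted p of 0.05 or lower (edgeR). Nearly all of the first list lies right of zero in both mutants, while in the second list all but 1 of the red points lie left of the blue point of the same gene.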

How the data were processed

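Paired 100-nucleotide reads were aligned by the authors with STAR (2.4.0f1 in the submitters' processing notes) to GRCm38. They deposited, per mutant, a table of that mutant and the same 4 control libraries. Deposited counts are whole reads per gene, not normalized, for genes with at least 10 counts over 8 libraries. The counting program is not given in the sources used here. The deposited score per gene and library, a count scaled by 1 factor per library and rounded by the authors, was not used. The tables also hold the authors' own fold changes and p-values, which were not used.

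Counts were tested with edgeR 4.0.16 (R 4.3.3): TMM, filterByExpr and robust quasi-likelihood F tests, with Benjamini-Hochberg adjustment over all tested genes. The 8 libraries of a table gave each mutant against control, and all 12 gave the direct comparison, on genes in both tables. The standard error is the fold change divided by the square root of F. The common biological coefficient of variation was 0.0425, 0.0384 and 0.0394 for Hdac1, Hdac2 and the direct comparison. CPM per kilobase used GENCODE M21 exon lengths (GRCm38). Fitting was tested on simulated counts. No replicate pair within a group agreed within sampling noise. Values in every library are given for members called in any comparison and for apical and basolateral members with a mean of at least 1 CPM in any group. The members and all gene lists were chosen with earlier results of these data known. Transporter symbols on the lists without a value here, such as Slc6a18, Slc7a10, Slc38a4 and Slc38a5, were not analysed here, and 1 gene of the partner list is counted but not reported here. Alternatives were other scalings, DESeq2 1.42.0, other filters and limits, a replicate block, other sets of libraries and each library left out. Figures used matplotlib 3.10.9.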

Additional observations from a re-analysis of the deposited data

Results flagged for a closer look

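In 80 sets of 4 libraries, 1 set per named gene and group, the highest or lowest library stood apart by Dixon's criterion at the 95% level in 4, and chance flags about 1 in 20. Slc15a1 was 32.5 CPM in Hdac2-deficient replicate 1, above 31.02 to 31.3 CPM in the other 3. Slc38a6 was 5.56 CPM in the same library, against 4.51 to 4.64 CPM. Slc7a8 was 38.5 CPM in Hdac2-deficient replicate 4, against 32.1 to 32.9 CPM, and Slc7a9 was 78.5 CPM in Hdac1-deficient replicate 4, against 68.97 to 70.0 CPM.

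Differences of more than 2-fold between the mutants, tested directly with edgeR, were found for 6 genes. The log2 difference, Hdac1-deficient minus Hdac2-deficient, was -2.19 for Slc7a11, -1.98 for Slc7a3, -1.18 for Slc38a1, 1.28 for Slc7a8, 1.47 for Slc6a20b and 1.68 for Slc6a19os. Slc7a3 and Slc6a19os were under 2 CPM in every library, and Slc7a3 was tested only through its Hdac2-deficient counts. The fitted value of Slc6a19os rests on 2 to 4 counts per Hdac2-deficient library and is no measure of size.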

How the results depend on the processing

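Of 218 recomputed counts of members, 6 moved by more than 1.5 times, all by dropping the fold limit: 20 higher and 14 lower members for Hdac1, 18 and 11 for Hdac2, and 18 and 15 between the mutants. With each library left out in turn, members called higher and lower by more than 2-fold numbered 7 to 8 and 4 to 4 for Hdac1, 4 to 5 and 2 to 3 for Hdac2, and 3 to 4 and 3 to 3 between the mutants. Over the 27 named genes, 1374 values were recomputed, of which 1325 kept direction and side of the limit, 30 lost it, 15 gained it and 4 changed sign. The sign changes were in differences between the mutants that did not pass: Slc43a1 (-0.03 without Hdac1-deficient replicate 2 and -0.025 without Hdac2-deficient replicate 1, range up to 0.188) and Slc7a2 (0 without Hdac1-deficient replicate 4 and -0.127 without Hdac2-deficient replicate 1, range up to 0.14). The 2-fold limit was passed by Slc36a4 without control replicate 2 in Hdac1-deficient enteroids (1.008) and without replicate 2 or 3 of control or of the mutant in Hdac2-deficient enteroids (1.007 to 1.043). It was passed by Slc6a7 in Hdac1-deficient enteroids without control replicate 3 or 4 or mutant replicate 1 or 2 (1.012 to 1.088), and by Slc7a15 between the mutants without Hdac1-deficient replicate 4 (1.009). Slc6a19os was not tested with a mean of at least 10 counts. Over all genes, correlations between same-numbered libraries were small (r from -0.0455 to 0.0913), and the numbers were not taken as pairs. Even so, 7 members (17.1%) and 2.28% of all tested genes split by number in all 3 groups. Small correlations therefore do not show that the libraries were unpaired. Replicate numbers as a block brought 3 values past the limit in Hdac2-deficient enteroids: Slc6a19 (0.267, adjusted p = 1.2e-05), Slc7a5 (0.095, adjusted p = 0.013) and Slc1a1 (0.15, adjusted p = 0.017). For Slc6a19 the block lowered the standard error from 0.134 to 0.047 in Hdac1-deficient enteroids and from 0.129 to 0.04 in Hdac2-deficient enteroids. Slc15a2, not listed in the Hdac2 table, has no test between the mutants, since setting its unlisted counts to 0 fixes the outcome. Members under 0.145 CPM, the floor in the shallowest library, are not measurable at this depth. Scaling moved the median of all genes by at most 0.034.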

Other observations

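The genes of amino acid sensing by mTORC1, the kinase complex that many of these carriers feed, were read as a further list. Of 21 tested, 7 rose and 3 fell in Hdac1-deficient enteroids and 7 rose and 2 fell in Hdac2-deficient enteroids, with none called in either and medians of -0.01 and 0.04. Over all genes tested, 32.7% rose and 31.9% fell for Hdac1, and 31.4% and 30.9% for Hdac2. The listed genes thus rose about as often as all genes, and fell less often. Rragd, which encodes a small GTPase of the sensing complex, was at 111 ± 2.39 CPM in control and at 155 ± 3.43 and 116 ± 2.23 CPM in the mutants (SD, n = 4), a rise of 0.49 and 0.073 on the log2 scale (adjusted p = 7.4e-11 and 0.047, edgeR) and a difference of 0.42 (adjusted p = 1.2e-11). Lamtor3, a scaffold gene of the lysosomal surface, had 0.31 and 0.45 (adjusted p = 1.7e-05 and 1.2e-08), and the leucine sensor relative Sesn3 had 0.43 and 0.33 (adjusted p = 1.5e-05 and 3.1e-05). Rragd, Lamtor3 and Sesn3 were named after their values were seen, and all rose. Those that fell in Hdac1-deficient enteroids were Rraga (-0.28, adjusted p = 2.8e-05), Fnip2 (-0.31, adjusted p = 0.00012) and Nprl3 (-0.27, adjusted p = 0.0016). In Hdac2-deficient enteroids, Depdc5 (-0.21, adjusted p = 0.00037) and Nprl3 (-0.18, adjusted p = 0.025) fell. Among markers of secretory cells, goblet markers summed to 1889 to 2110 CPM in control libraries, 1938 to 2077 CPM in the Hdac1-deficient libraries and 2996 to 3224 CPM in the Hdac2-deficient libraries, and Paneth markers to 2121 to 2481, 3105 to 3368 and 3383 to 3530 CPM. Of the 7 goblet markers, 3 rose and 2 fell in Hdac1-deficient enteroids (median log2 fold change -0.043), and 7 rose in Hdac2-deficient enteroids (0.53). Of the 6 Paneth markers, 2 rose and 1 fell in Hdac1-deficient enteroids (median 0.019), unlike their sum, and 5 rose in Hdac2-deficient enteroids (0.40).

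Slc6a19 was higher in replicates 1 and 4 than in replicates 2 and 3 in each of the 3 groups: 69.5 and 71.6 against 59.9 and 61.2 CPM in control, 130.7 and 146 against 107 and 101 CPM in Hdac1-deficient, and 86.2 and 93.6 against 67.3 and 68.3 CPM in Hdac2-deficient enteroids. The same split in all 3 groups was seen for Slc3a1, Slc6a20a, Slc43a2 and Slc7a7, and the reverse split for Slc1a1 and Slc7a5. These are 5 and 2 of 41 members (17.1%), against 215 and 116 of 14510 genes tested (2.28%). The split was chosen after the values were seen and was not tested.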
